A study of Mus musculus with 6 samples.

Results

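Esrrb, Tfcp2l1, Nr0b1, Tbx3, Prdm14, Zfp42, Nr5a2, Tcl1 and Gbx2 are genes of the naive pluripotency network, the group of factors that is active in mouse embryonic stem cells (mESC) and in the preimplantation epiblast. These 9 genes were taken by name as known genes of that network, with earlier results of these data known, among the 42450 genes listed in a table of total RNA-seq counts, and all 9 passed the filter on low counts. The comparison set 3 libraries of wild-type mESC (WT, line E14tg2a.4) against 3 libraries of Srrm2+/- mESC, in which a gene-trap cassette interrupts 1 allele of Srrm2, the gene of a splicing factor of nuclear speckles. It asked how the RNA of these genes differs when the dose of Srrm2 is reduced. Both lines share the E14 background and were kept feeder-free on gelatin with the cytokine LIF, then moved to serum-free ESGRO medium with LIF. Among the genes that differed most between the lines, the paper names the Y-linked Ddx3y and Eif2s3y. The Srrm2+/- cells are 1 gene-trap clone (CG0630), the replicates of each line are batches frozen at different passages, and the WT batches had been passaged longer. Genotype, clone and passage therefore cannot be told apart, and the p-values measure the spread between frozen batches of 1 line per genotype. In bulk RNA, fewer cells of a type and less RNA per cell cannot be told apart either.

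In mESC, LIF acts through JAK kinases and STAT3, and a restrained GSK3 kinase relieves the repressor TCF7L1. Both routes keep naive factors such as Tfcp2l1, Esrrb, Tbx3 and Gbx2 active, and these hold up one another and the core factors Pou5f1, Sox2 and Nanog. FGF signalling through ERK works the other way and moves cells to the formative state, in which the naive factors are switched off. Of the genes described here, Esrrb, Nr5a2 and Nr0b1 encode orphan nuclear receptors, Tfcp2l1 a grainyhead-like factor, Tbx3 a T-box factor, Gbx2 a homeobox factor, Prdm14 a PR-domain regulator of chromatin and Zfp42 the zinc finger protein also called REX1. Tcl1 encodes a coactivator of the kinase AKT and not a transcription factor, so the group is called naive factors below.

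The promoters of 4 naive factors that were lower in Srrm2+/- are shown because they hold short words read by factors of the pluripotency network, and the other members' windows hold no such word or were not used here. Windows of 250 bases before and 50 bases after a start site came from RefSeq (GRCm38.p6), and 7 of the 9 genes had at least 1 window. Tbx3 and Prdm14 had none. Esrrb and Nr5a2 each had another window, which held no such word and is not printed. The 250 bases before the start are printed 5′ to 3′ on the strand of the gene, with matches on either strand in capitals. They lie at chr12:86360867-86361116 (Esrrb, plus strand), chr1:118627695-118627944 (Tfcp2l1, plus strand), chr8:43307010-43307259 (Zfp42, minus strand) and chr1:136953631-136953880 (Nr5a2, minus strand).
Esrrb: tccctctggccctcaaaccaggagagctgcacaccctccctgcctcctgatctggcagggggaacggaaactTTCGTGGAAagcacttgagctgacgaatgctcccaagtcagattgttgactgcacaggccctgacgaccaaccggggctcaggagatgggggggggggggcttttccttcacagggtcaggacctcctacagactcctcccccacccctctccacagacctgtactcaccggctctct
Tfcp2l1: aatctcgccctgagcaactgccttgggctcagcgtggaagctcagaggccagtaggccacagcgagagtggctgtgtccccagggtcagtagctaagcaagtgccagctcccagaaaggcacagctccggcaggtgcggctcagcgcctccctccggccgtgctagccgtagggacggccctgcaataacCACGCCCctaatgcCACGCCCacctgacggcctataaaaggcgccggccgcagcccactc
Zfp42: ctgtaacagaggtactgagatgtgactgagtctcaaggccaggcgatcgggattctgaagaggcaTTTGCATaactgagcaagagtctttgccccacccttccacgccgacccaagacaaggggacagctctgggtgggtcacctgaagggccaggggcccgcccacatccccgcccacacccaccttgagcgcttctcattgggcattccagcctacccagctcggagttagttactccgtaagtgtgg
Nr5a2: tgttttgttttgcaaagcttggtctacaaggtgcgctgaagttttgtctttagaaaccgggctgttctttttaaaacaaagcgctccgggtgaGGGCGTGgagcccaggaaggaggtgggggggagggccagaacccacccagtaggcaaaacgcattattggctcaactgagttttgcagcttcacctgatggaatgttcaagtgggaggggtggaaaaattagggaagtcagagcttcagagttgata

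The capitals in the Esrrb window match TTCNNNGAA, the palindrome of STAT factors. Those in the Tfcp2l1 and Nr5a2 windows match GGGCGTG, a word of KLF factors, which occurs 2 times in the Tfcp2l1 window and there on the opposite strand. The capitals in the Zfp42 window match the octamer word ATGCAAA of POU5F1 on the opposite strand. The 6 words were searched on both strands in windows of 300 bases, and no matches overlapped in the members' windows. Of the 9 member windows, 1 held TTCNNNGAA, 2 held GGGCGTG and 1 held ATGCAAA. Of all 32851 windows, 8.30% held TTCNNNGAA, 8.44% held GGGCGTG and 4.63% held ATGCAAA. The word ACAATGG of SOX2 was found in 1 of the 9 member windows, after the Esrrb start, and in 3.66% of all windows. AAGGTCA, the word bound by ESRRB and NR5A2, and CTTTGAT of TCF factors were found in 0 of the 9 member windows, against 4.72% and 3.73% of all windows. A match is a description of the letters and not a bound site.

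The libraries held 54151433 to 69933421 estimated counts. Srrm2 itself was at 91.2, 98.3 and 97.7 CPM (counts scaled to the normalized library total) in WT and at 62.3, 56.2 and 59.6 CPM in Srrm2+/-, with a fitted log2 change (the log2 fold change of Srrm2+/- over WT from edgeR) of -0.69 (edgeR SE 0.05 and adjusted p = 2.38e-05). The mESC markers Pou5f1, Sox2, Nanog and Sall4 were present in all 6 libraries, Pou5f1 at 810 CPM or more. Estimated counts of a naive factor lay between 598 and 51827 in a single library, and the coefficient of variation within a genotype lay between 1.3% and 10.4%.

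Of the 9 naive factors, 8 were lower in Srrm2+/- and 0 were higher (edgeR quasi-likelihood test, Benjamini-Hochberg adjusted p under 0.05 over 18905 genes). The same call was made for 25.3% of all tested genes, of which 11.7% were lower and 13.6% higher. Among the 7329 genes expressed at least as highly as the lowest member, 18.2% were lower. The median log2 fold change was -0.77 over the 9 naive factors, -0.0025 over all tested genes and -0.38 over the genes called lower. For the same 8 naive factors every Srrm2+/- library lay below every WT library, which held for 20.0% of tested genes. Gbx2 did not pass the test.

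**Figure D1:**
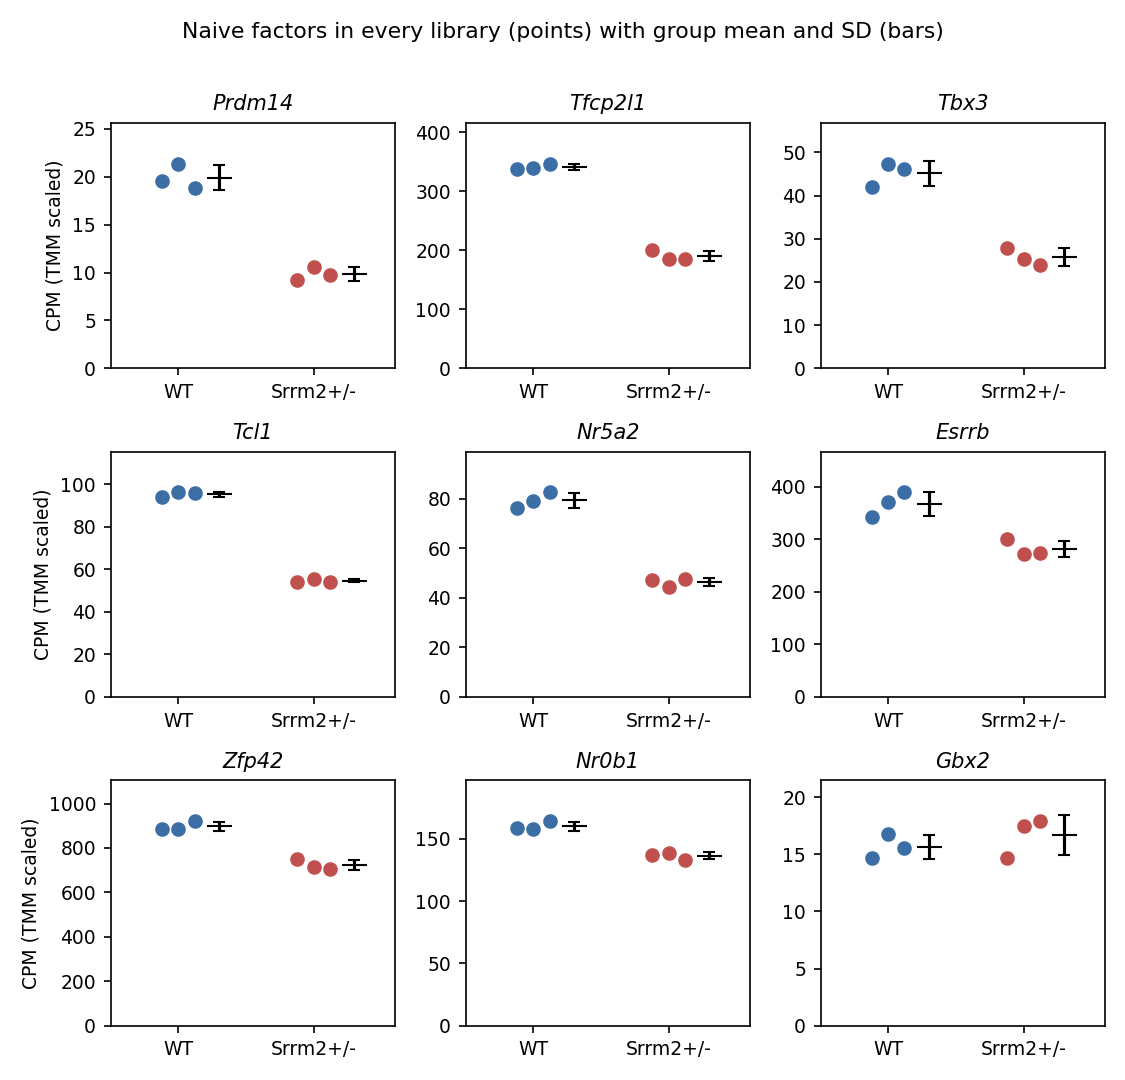
Normalized CPM of the 9 naive factors in each of the 6 libraries, on a separate linear axis per gene, with points for libraries and bars for the mean and SD (n = 3). The Srrm2+/- points lie below all WT points in 8 of the 9 genes and overlap them for Gbx2.

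The plot of CPM by library shows how narrow the groups were next to the distance between them. For Prdm14, for instance, the highest Srrm2+/- library was at 56.2% of the lowest WT library. For Nr0b1 the same share was 88.0%, the highest of the 8 genes that were lower.

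The 3 nuclear receptors differed in how far they were lower. Esrrb, the receptor that can stand in for Nanog in self-renewal, lies on chromosome 12 (86361117 to 86521628, plus strand, GRCm38). It was at 343, 371 and 389 CPM in WT and at 299.9, 272 and 274 CPM in Srrm2+/-. The groups did not overlap, and Srrm2+/- replicate 1 was the highest of its group. The mean went from 368 ± 23.1 to 282 ± 15.8 CPM (SD, n = 3 each), which is 76.6% of WT, with a fitted log2 change of -0.38 (SE 0.06, 95% interval -0.52 to -0.25, edgeR adjusted p = 0.00154).

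Nr5a2, also known as LRH-1, binds regulatory elements of Pou5f1 and lies on chromosome 1 (136842571 to 136960448, minus strand). It was at 76.2, 79.1 and 82.4 CPM in WT and at 47.2, 44.5 and 47.5 CPM in Srrm2+/-. All Srrm2+/- libraries were well below the lowest WT library. The mean was 79.3 ± 3.11 CPM in WT against 46.4 ± 1.66 CPM in Srrm2+/- (mean ± SD, n = 3 each), or 58.6% of WT, and the log2 fold change was -0.77 (SE 0.05, 95% interval -0.88 to -0.67, edgeR adjusted p = 7.44e-06).

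Nr0b1, or DAX1, lacks the usual DNA-binding domain of its family, acts mostly as a corepressor and is the sole X-linked member (86191764 to 86195947, plus strand). It was at 159, 158 and 164 CPM in WT and at 137.5, 139 and 133 CPM in Srrm2+/-. The difference was small beside those above, but the groups did not overlap. The means of 160.3 ± 3.54 and 136.5 ± 2.89 CPM (SD, n = 3 each) gave a fitted log2 change of -0.23 (SE 0.04, 95% interval -0.32 to -0.15, edgeR adjusted p = 0.00208), the smallest of the 8 that passed the test.

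Tfcp2l1, Tbx3 and Gbx2 are known as factors downstream of LIF and of its parallel routes through PI3K and Wnt. Tfcp2l1 is a target of both STAT3 and the GSK3 route and lies on chromosome 1 (118627945 to 118685168, plus strand). It was at 337, 339 and 346 CPM in WT and at 199.9, 185.0 and 184.7 CPM in Srrm2+/-. WT libraries spread by less than the Srrm2+/- libraries, of which replicate 1 was the highest. The mean went from 341 ± 4.95 to 189.9 ± 8.67 CPM (SD, n = 3 each), 55.7% of WT, with a fitted log2 change of -0.84 (SE 0.04, 95% interval -0.94 to -0.74, edgeR adjusted p = 3.49e-06).

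Tbx3, a T-box repressor and activator tied to PI3K and AKT signals in mESC, lies on chromosome 5 (119670669 to 119684724, plus strand). It was at 41.9, 47.4 and 46.2 CPM in WT and at 27.9, 25.4 and 23.9 CPM in Srrm2+/-. No Srrm2+/- library came near the WT range. The mean was 45.2 ± 2.87 CPM in WT against 25.7 ± 2.07 CPM in Srrm2+/- (mean ± SD, n = 3 each), and the log2 fold change was -0.81 (SE 0.07, 95% interval -0.97 to -0.65, edgeR adjusted p = 6.5e-05).

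Gbx2, a homeobox gene and STAT3 target, lies on chromosome 1 (89927956 to 89931179, minus strand) and was the exception. It was at 14.7, 16.8 and 15.6 CPM in WT and at 14.7, 17.4 and 17.9 CPM in Srrm2+/-. The groups overlapped, with the lowest library of each genotype at the same level. The means were 15.7 ± 1.05 and 16.7 ± 1.74 CPM (mean ± SD, n = 3 each), and the log2 fold change was 0.09 (SE 0.09, 95% interval -0.11 to 0.29, edgeR adjusted p = 0.51). The lower end of this interval lay above the upper end for each of the other 8 genes.

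The reading of Gbx2 depends on a second gene. D130058E05Rik, a noncoding transcript on the opposite strand (89930234 to 89933290), overlaps Gbx2, and 42.7% of the 31-base words of Gbx2 occur in it. The strand setting of the counting was not given in the sources used here, so reads of the pair cannot be told apart. D130058E05Rik was lower, at 10.3 ± 0.959 CPM in WT against 7.12 ± 0.301 CPM in Srrm2+/- (mean ± SD, n = 3 each), with a fitted log2 change of -0.53 (edgeR SE 0.09 and adjusted p = 0.00301). When both were summed, a choice made after seeing the data, the log2 fold change turned to -0.13 (edgeR SE 0.07 and adjusted p = 0.221). Neither value passed the test. The other members shared less, Zfp42 13.4% of its words with the pseudogene Zfp42-ps1, which was not analysed here, and the remaining 7 at most 2.53%.

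Prdm14, which recruits Polycomb and TET proteins and holds down de novo methyltransferases and FGF receptors, showed the largest difference of the 9. The gene lies on chromosome 1 (13113457 to 13127163, minus strand). It was at 19.6, 21.4 and 18.8 CPM in WT and at 9.21, 10.6 and 9.69 CPM in Srrm2+/-. All 3 Srrm2+/- libraries were far below the lowest WT library. The mean of 19.9 ± 1.31 CPM in WT against 9.83 ± 0.700 CPM in Srrm2+/- (mean ± SD, n = 3 each), 49.3% of WT, gave a fitted log2 change of -1.02 (SE 0.08, 95% interval -1.19 to -0.85, edgeR adjusted p = 2.6e-05). Of all tested genes 2.50% had a lower log2 fold change, and of the 7329 genes expressed at least as highly as the lowest member 0.75% did.

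Zfp42, whose protein REX1 is a common marker of the naive state, lies on chromosome 8 (43295063 to 43306980, minus strand). It was at 885, 886 and 920.5 CPM in WT and at 749, 713 and 705 CPM in Srrm2+/-. The groups were apart, with a moderate difference. The mean went from 897 ± 20.1 to 722 ± 23.3 CPM (SD, n = 3 each), 80.5% of WT, with a fitted log2 change of -0.31 (SE 0.04, 95% interval -0.40 to -0.22, edgeR adjusted p = 0.000637).

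Tcl1, the AKT coactivator, lies on chromosome 12 (105216750 to 105222793, minus strand). It was at 93.8, 96.1 and 95.9 CPM in WT and at 54.2, 55.3 and 54.1 CPM in Srrm2+/-. Its libraries were the tightest of the group, and the genotypes were far apart. The means of 95.3 ± 1.25 and 54.5 ± 0.706 CPM (SD, n = 3 each) gave a fitted log2 change of -0.80 (SE 0.04, 95% interval -0.89 to -0.72, edgeR adjusted p = 1.63e-06).

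**Figure D2:**
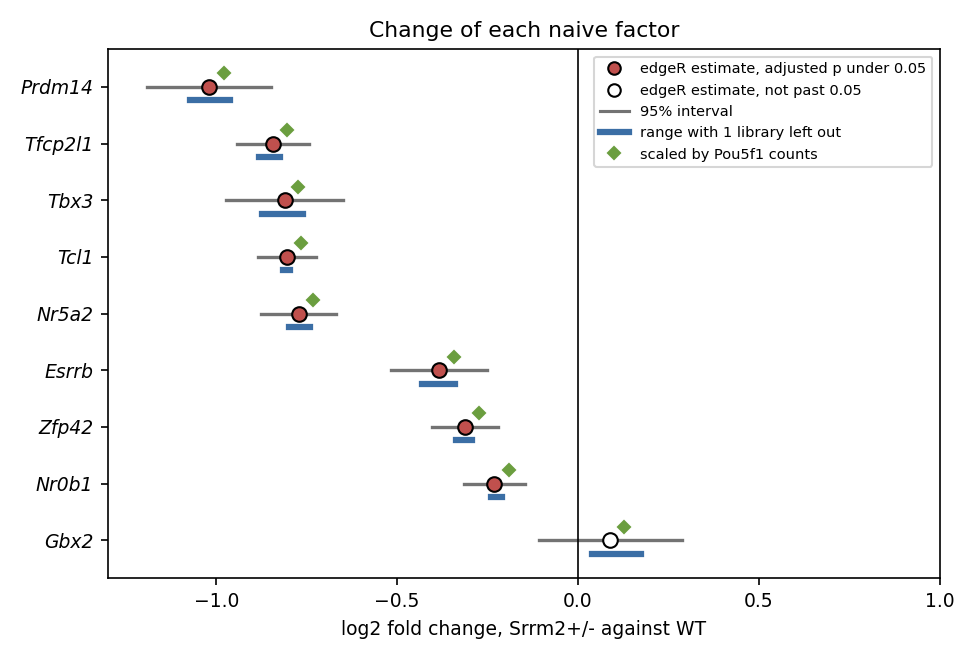
Log2 fold change of Srrm2+/- against WT for each naive factor from edgeR (circles, filled where adjusted p is under 0.05) with the 95% interval (grey), the range when 1 library is left out (blue) and the log2 difference after scaling by Pou5f1 counts (green). The upper 5 genes lie between -1.02 and -0.77, the next 3 between -0.38 and -0.23, and Gbx2 at 0.09.

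The plot of log2 fold changes shows 2 levels of difference, a grouping made after the values were seen. Prdm14, Tfcp2l1, Tbx3, Tcl1 and Nr5a2 lay between -1.02 and -0.77, and Esrrb, Zfp42 and Nr0b1 between -0.38 and -0.23. The 95% intervals of the 5 and of the 3 did not overlap, the nearest ends being -0.65 for Tbx3 and -0.52 for Esrrb. With 1 library left out in turn, the 8 genes kept their direction and stayed past the threshold, with adjusted p from edgeR of at most 0.0127, the value for Nr0b1.

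The differences were also expressed against 1 gene in place of the library total. Pou5f1 itself did not pass the test, at -0.04 under the scaling to totals, so dividing by it could move the values only slightly. It is therefore not a separate check of that scaling, and no spike-in scaling was run. Expressed as a share of Pou5f1 counts in the same library, Tfcp2l1 was at 39.7%, 39.3% and 41.7% in WT and at 24.1%, 22.8% and 22.3% in Srrm2+/-. Prdm14 was at 2.31%, 2.48% and 2.27% in WT and at 1.11%, 1.31% and 1.17% in Srrm2+/-. Zfp42, the most abundant of the group, was at 104%, 103% and 111% in WT and at 90.1%, 88.0% and 85.0% in Srrm2+/-. On this scale the 8 genes again showed no overlap between genotypes, with log2 differences of -0.98 (Prdm14) to -0.19 (Nr0b1), and Gbx2 overlapped at 0.13.

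**Figure D3:**
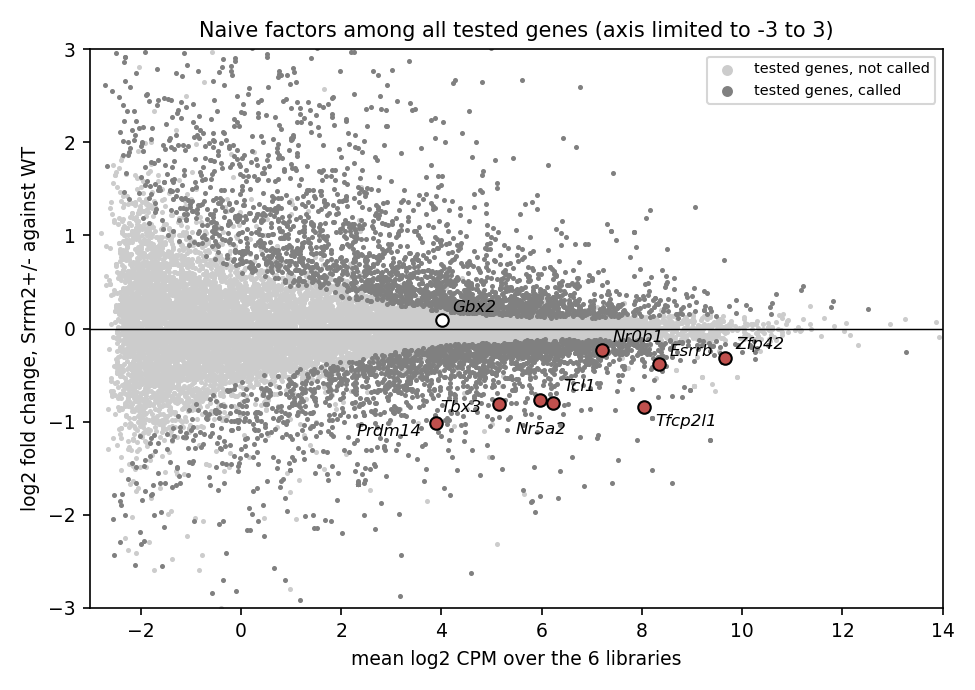
Log2 fold change (Srrm2+/- against WT) against mean log2 CPM for the tested genes, dark grey where called and light grey where not, with the 9 naive factors as ringed points, filled where called. The vertical axis leaves out the most extreme genes. The naive factors span a wide range of levels, and 8 of them lie below 0.

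Set among all tested genes in the plot of log2 fold change against level, 5 of the naive factors stood in the low tail. The share of tested genes with a lower log2 fold change was 3.78% for Tfcp2l1, 4.10% for Tbx3, 4.17% for Tcl1 and 4.50% for Nr5a2. For Esrrb, Zfp42 and Nr0b1 this share was 12.8%, 15.8% and 20.9%, so many genes were lower by more.

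Levels of different genes were compared per kilobase of merged exons. In WT, Zfp42 was the highest at 477 ± 10.7 CPM per kb, followed by Nr0b1 at 88.6 ± 1.96, Esrrb at 60.8 ± 3.82, Tcl1 at 51.6 ± 0.676, Tfcp2l1 at 36.1 ± 0.525 and Nr5a2 at 13.4 ± 0.528 CPM per kb (SD, n = 3 each). Prdm14 at 7.77 ± 0.510, Gbx2 at 7.19 ± 0.483 and Tbx3 at 6.82 ± 0.434 CPM per kb formed the low end, where neighbours did not differ beyond their SD. In Srrm2+/- the first 6 kept their order, with Zfp42 at 384 ± 12.4 and Nr5a2 at 7.87 ± 0.282 CPM per kb. Gbx2, at 7.66 ± 0.799 CPM per kb, then overlapped Nr5a2 and stood above Tbx3 at 3.88 ± 0.312 and Prdm14 at 3.83 ± 0.273 CPM per kb, which overlapped each other. The length of transcript used matters for close neighbours. Per kilobase of the longest transcript, Esrrb was at 85.5 ± 5.37 in WT and its SD range met that of Nr0b1, and 34 of the 36 pairs of genes kept their order.

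**Figure D4:**
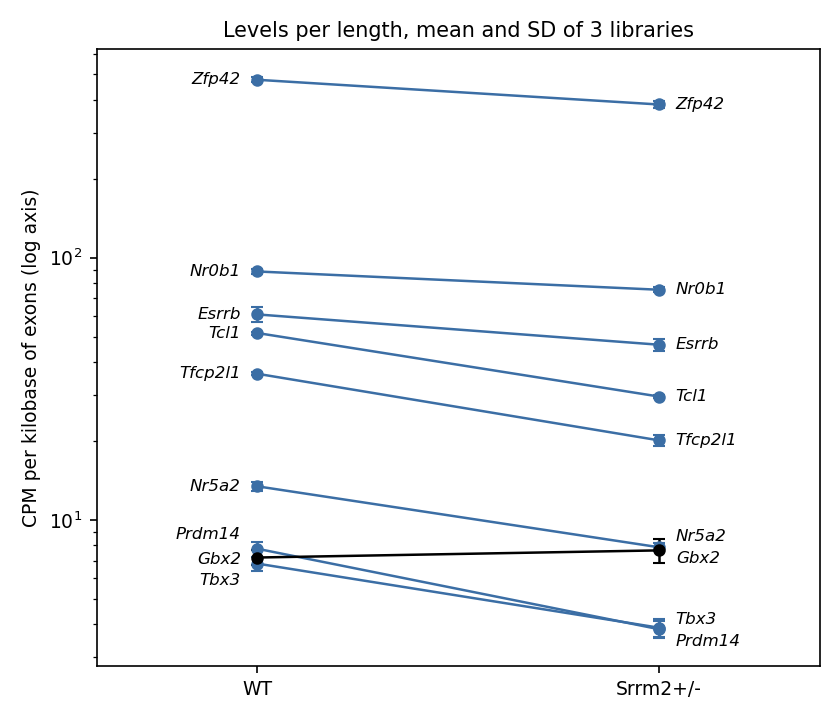
CPM per kilobase of merged exons for the 9 naive factors on a log axis, with points and bars for the mean and SD of each genotype (n = 3) and a line joining the genotypes of a gene. Zfp42 stands highest in both genotypes, and Nr5a2, which is lower in Srrm2+/-, stands there next to Gbx2, which was not called.

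The plot of levels per kilobase sets the abundant receptors and Zfp42 apart from Prdm14, Gbx2 and Tbx3. Among those 3 low genes, Prdm14 and Tbx3 were lower in Srrm2+/- and Gbx2 was not called.

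Genes next to the naive factors were read as well. Within 50 kb of a member, or overlapping it, 20 genes were annotated, of which 8 were tested and 2 were called, against the 25.3% of all tested genes given above. The log2 fold change had the sign of the member for 6 of the 8, of which 0 passed the test. The 2 called genes were D130058E05Rik, described above, and Clasp1, the gene of a microtubule-binding protein upstream of Tfcp2l1. Clasp1 was higher with a fitted log2 change of 0.24 (edgeR SE 0.05 and adjusted p = 0.00823) while Tfcp2l1 was lower. Tbx3os2, a noncoding transcript of the opposite strand beside Tbx3, was at -0.66 (edgeR adjusted p = 0.0821). Ncoa2 beside Prdm14 was at -0.08 (edgeR adjusted p = 0.379) and Agap1 beside Gbx2 at 0.10 (edgeR adjusted p = 0.442). The pseudogene or noncoding RNA genes Gm29718 near Nr5a2 (-0.58), Gm22094 within Tfcp2l1 (-0.81) and Gm29283 near Prdm14 (-0.25) were not called either (edgeR adjusted p = 0.0909, 0.187 and 0.714). Without WT replicate 3, Gm29718 passed the test at -0.74, and without Srrm2+/- replicate 3, Gm29283 turned to 0.05. Of the 9 genes, 4 lie on chromosome 1 and 2 on chromosome 12.

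For each naive factor the 3 most alike genes were sought among 12067 genes, by the mean absolute difference of centred log2 CPM over the 6 libraries, which gave values of 0.0116 to 0.0452. This measure follows the genotype difference for the most part and is a description. Nr5a2 was closest to Kit, the receptor of stem cell factor, then to Frat1 and to Srrm2 itself, at a difference of 0.0408. Tfcp2l1 was closest to Jam2, Lrrc31 and Ildr1, and Tcl1 shared Lrrc31 and Ildr1 with it, beside Osbpl10. Tbx3 was closest to Kif5a, Adap1 and Cobl, and Prdm14 to Pdgfc, Pqlc1 and Cerkl. The genes nearest to Esrrb were Nfe2l1, Lrig3 and Sp2, to Zfp42 Adal, Chuk and Zfp97, and to Nr0b1 Gm2004, B230354K17Rik and Gm28229. Gbx2 was nearest to Tmem170b, Slc6a15 and Pdia4. Nr5a2 and Tfcp2l1 were the closest pair of members, at 0.0409, each among the 7 genes nearest to the other. The member closest to Gbx2, Nr0b1, ranked 7868.

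The rest of the naive network was described by lists chosen with earlier results of these data known. Of 7 core and KLF factors, 4 were lower, 0 were higher and the median log2 fold change was -0.30. They were Klf4 (-0.82), Nanog (-0.72), Klf2 (-0.47) and Sox2 (-0.30). Pou5f1, Sall4 and Klf5 did not pass the test, at -0.04, -0.08 and -0.15, and without WT replicate 1 Klf5 passed it at -0.23. Of 9 other genes of the naive state, 6 were lower, 1 was higher and the median was -0.31. Alpl, the alkaline phosphatase used as a stem cell stain, was at -0.88, and the growth factor gene Fgf4 was at -0.44. Pecam1 was at -0.43, Tdh at -0.29, Zfp57 at -0.25 and Dppa5a at -0.18, and the call for Dppa5a was lost without WT replicate 2 (-0.17) or 3 (-0.14), or Srrm2+/- replicate 2 (-0.19) or 3 (-0.16). Dppa3, a maternal and germ cell factor, was higher, at 0.71.

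**Figure D5:**
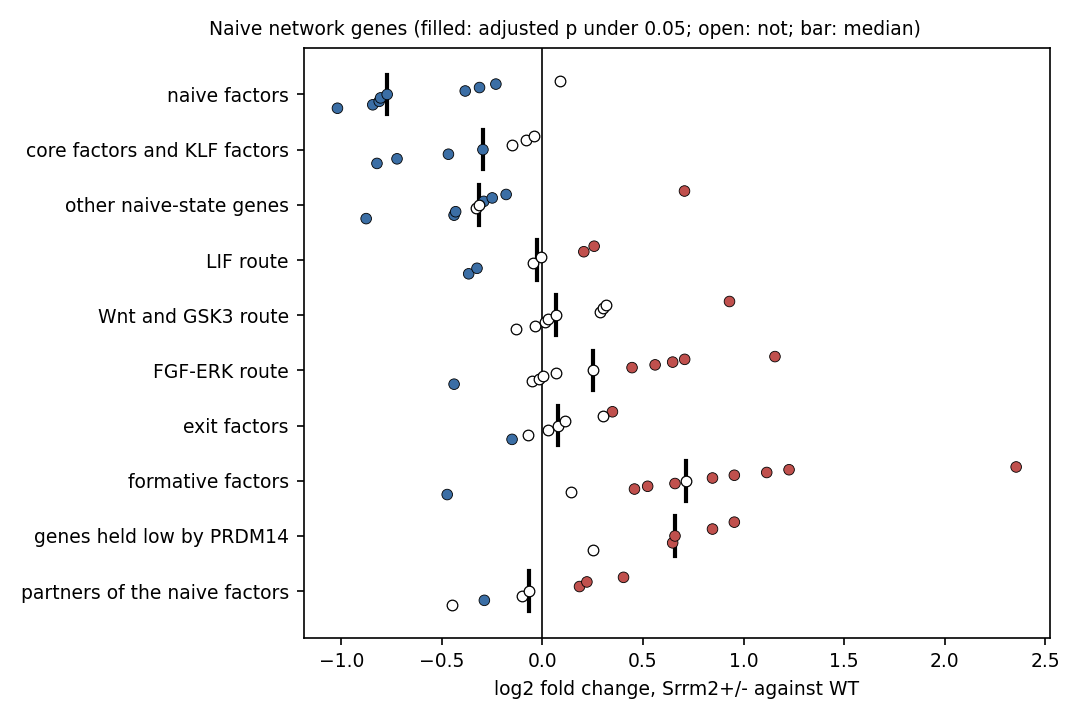
Log2 fold change (Srrm2+/- against WT) of the naive factors and of the genes in 9 lists of the naive network, with 1 point per tested gene, filled where the edgeR adjusted p is under 0.05, and a bar at each median. The naive factors lie mostly below 0, with a median of -0.77, and the formative factors mostly above it, with a median of 0.72.

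In the plot of the network lists, the inputs to the naive factors moved in different directions. Of 6 genes of the LIF route, 2 were lower, 2 were higher and the median was -0.03. The receptor genes fell, Lifr from 132 ± 2.96 to 105.6 ± 2.63 CPM (log2 fold change -0.33) and Il6st from 146 ± 6.13 to 113 ± 3.78 CPM (log2 fold change -0.37; SD, n = 3 each). Jak1 (0.26) and Ptpn11 (0.21) were higher, and the transducer Stat3 (-0.05) and its target Socs3 (-0.01) did not pass the test. Of 9 genes of the Wnt and GSK3 route, 1 was higher and 0 were lower, with a median of 0.07. This was Lef1, a low gene at 1.72 ± 0.154 CPM in WT against 3.27 ± 0.188 CPM in Srrm2+/- (mean ± SD, n = 3 each). Tcf7 was at 0.29 and not called, but without Srrm2+/- replicate 2 it passed the test at 0.38, which makes 2 of the 9. The repressor gene Tcf7l1 was at 0.30 (edgeR adjusted p = 0.135) and the beta-catenin gene Ctnnb1 at 0.07 (edgeR adjusted p = 0.282). Neither was called.

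Of 11 genes of the FGF and ERK route, 5 were higher, 1 was lower and the median was 0.25. Dusp6, an ERK phosphatase whose gene is a standard readout of ERK, rose from 52.5 ± 1.501 to 117 ± 3.29 CPM (mean ± SD, n = 3 each), a fitted log2 change of 1.16 (edgeR SE 0.04 and adjusted p = 4.55e-07). The feedback inhibitors Spry4 (0.71) and Spry2 (0.56), the receptor Fgfr1 (0.65) and the ETS factor Etv4 (0.45) were higher, whereas the ligand Fgf4 was lower, as given above. Of 7 genes known to drive exit from the naive state, Rbpj was higher (0.35) and Fnip1 lower (-0.15), with a median of 0.08. The call for Fnip1 was lost without WT replicate 3 (-0.12), or without Srrm2+/- replicate 2 (-0.14) or 3 (-0.14).

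Genes that PRDM14 is known to hold low were read as a list. Of these 5, 4 were higher, 0 were lower and the median was 0.66, while 13.6% of all tested genes were higher. Whether the lower Prdm14 has a part in this was not tested. Dnmt3b, a de novo DNA methyltransferase, rose from 122 ± 8.25 to 237 ± 33.1 CPM (mean ± SD, n = 3 each), a fitted log2 change of 0.95 (edgeR SE 0.09 and adjusted p = 0.00013). Dnmt3a was at 0.85, its cofactor Dnmt3l at 0.66 and Fgfr1 at 0.65, and Fgfr2 did not pass the test. These 3 Dnmt3 genes also stand in the list of formative factors, of which 8 of 11 were higher, 1 was lower and the median was 0.72. The POU factor Pou3f1 was at 2.36, Otx2 at 1.12, Utf1 at 0.52 and Tcf15 at 0.46. Fgf5 was at 1.23 but below 1 CPM in every library, and its call was lost without WT replicate 1 (1.09) or 2 (1.07), or Srrm2+/- replicate 1 (1.19) or 3 (1.15). Zic2 was lower, at -0.47.

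Partners of the naive factors gave no common direction. Of 7 such genes, 3 were higher, 1 was lower and the median was -0.07. Akt1 (0.40) and Akt2 (0.22), the kinases that TCL1 binds, were higher, whereas Tcl1 was lower. Suz12 of the Polycomb complex was lower, at -0.29. Ncoa3, a coactivator of ESRRB, was at 0.18, and its call was lost without any of 5 libraries, that is all but Srrm2+/- replicate 1, at 0.13 to 0.21. Of 16 paralogues of the naive factors, 7 were tested, 1 was lower and 0 were higher, with a median of -0.05. Prdm1 was the one that was lower, at -0.91, and Tcl1b1 was at 0 counts in every library. Ubp1, a paralogue of Tfcp2l1, was at 0.31 and not called, but passed the test without Srrm2+/- replicate 2 (0.44) and with the replicate number as a block (0.30), which makes 2 of the 7. Under the filter of 1 count over all libraries 15 were tested and the second call was Nr5a1, at 0 counts in all WT libraries and at 11, 5 and 2 counts in Srrm2+/-.

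Markers of other cell types were read beside these results. Fibroblast markers summed to 4.67 to 4.87 CPM in WT and 9.91 to 12.8 CPM in Srrm2+/-, and 4 of the 5 were higher, Col1a2 (3.89), Col3a1 (2.28), Col1a1 (1.13) and Twist1 (1.12). The fifth, Thy1, was at -0.70 and did not pass the test (edgeR adjusted p = 0.0939), and without Srrm2+/- replicate 3 it was called lower at -1.09. Primitive streak markers summed to 1.62 to 2.42 and 4.26 to 4.89 CPM, and of 6 genes 4 were tested and 1 was higher, T (1.89). Neural markers summed to 88.6 to 91.8 and 130.7 to 138 CPM, and of 5 genes 4 were tested, with Nes higher (2.67), Tubb3 (-0.76) and Pax6 (-0.30) lower and Neurog2 below 1 CPM in every library. Trophectoderm markers summed to 52.0 to 52.9 and 32.3 to 35.3 CPM, mostly Tfap2c, which was lower (-0.71). Among these, Cdx2 was at 0 in all WT libraries and at most 0.276 CPM in Srrm2+/-, and Eomes, at about 1 CPM or less, was higher (0.79) with a call that was lost without any of 5 libraries, that is all but WT replicate 2, at 0.67 to 0.89. Primitive endoderm markers summed to 2.39 to 2.70 and 2.56 to 3.64 CPM, and of 7 genes 5 were tested and 1 was higher, Dab2 (1.34), while Gata6, Sox17, Sox7, Pdgfra and Foxa2 were below 1 CPM in every library. The part of such cells in the lower levels of the naive factors was not tested.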

How the data were processed

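Total RNA was isolated with TRIzol, and stranded total RNA libraries were sequenced as paired-end reads. The authors pseudo-aligned reads with Kallisto 0.46.1 to mouse transcripts (GRCm38) and deposited unnormalized estimated counts for each gene. Whether strand was used in counting is not given in the sources used here. Since Kallisto splits reads over transcripts with common sequence, counts can move between overlapping or similar genes. Spike-in RNA was added, but no spike-in rows were used here.

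Counts were rounded and tested with edgeR 4.0.16 (R 4.3.3; TMM, filterByExpr with minimum count 10 and total 15, glmQLFit and glmQLFTest, two-sided, genotype as the sole term, all 6 libraries), adjusted by Benjamini-Hochberg over 18905 genes and called under 0.05. The standard error was the log2 fold change divided by the square root of F. Library totals were 54151433 to 69933421, and a naive factor had at least 598 counts in a library. Symbols came from GENCODE M21 (42156 of 42450 identifiers matched). Alternatives were RLE, upper quartile, DESeq2 1.42.0, limma voom (3.58.1), other filters, a replicate block, 1 library left out, and normalization without short RNA, rRNA and mitochondrial genes. Scripts were tested on simulated data.

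The 9 genes and the lists were chosen with earlier results of these data known. Named were Srrm2, the members, the called genes of each list with up to 4 others, the 3 most alike genes (mean log2 CPM of at least 1, prior count 2) and neighbours within 50 kb. Fbxo15, Tet2 and Eed were picked for their spread after their values were seen.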

Additional observations from a re-analysis of the deposited data

How the results depend on the processing

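The 8 naive factors called lower stayed lower and past the threshold with RLE, upper quartile, short RNA, rRNA and mitochondrial genes removed, DESeq2, limma voom, both other filters, the replicate block and each library left out. At adjusted p under 0.01 the edgeR count of changed genes fell from 4781 to 2779. With a required log2 change of 1 or more in size it was 1153, of which 70.5% were higher, against 53.8% at the main threshold. That rule left 1 naive factor, Prdm14, and 11 of the 48 called genes among the 97 tested genes of the other lists. Fewer calls follow there from the stricter rule itself. Leaving out 1 library gave 3515 to 4122 changed genes, 8 naive factors each time and 44 to 47 of the other listed genes. Replicate numbers did not pair the samples, since deviations of same-numbered WT and Srrm2+/- libraries correlated at -0.03 in each of the 3 pairs, and with the replicate block 4166 genes, 8 naive factors and 47 other listed genes were called. The replicate block ended the call for Dppa5a (-0.18) and Eomes (0.80), and DESeq2 and the filter of 1 count over all libraries also ended that for Eomes (0.79 and 0.80).

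Gbx2 turned from 0.09 to -0.13 when summed with D130058E05Rik (chosen after seeing the data), with adjusted p of 0.133 to 0.839 over its alternatives. Socs3, at -0.01, turned to 9.74e-05 under the filter of 1 CPM, and leaving out 1 library gave -0.029 to 0.018, above 0 without WT replicate 2 (0.015) or Srrm2+/- replicate 2 (0.018). Gm29283, at -0.25, lay between -0.67 and 0.052 with 1 library left out and turned to 0.052 without Srrm2+/- replicate 3. What caused these turns was not tested. The lowest count of a naive factor in a library was 598, and no test of depth was run. Dab2 was below 1 CPM in the WT libraries and in Srrm2+/- replicates 1 and 3 (0.853 and 0.972 CPM). It was therefore not tested under the filter of 1 CPM in every library of a group.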

Other observations

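Prdm14 also acts in primordial germ cells, whose other regulators were read as a list. Of 6 germ cell genes, 2 were lower and 1 was higher. Dazl was at -0.44 and just missed the threshold (edgeR adjusted p = 0.0503). With RLE, DESeq2, limma voom or the filter of 1 CPM, 3 genes of the list were lower. This also held with short RNA, rRNA and mitochondrial genes removed, or without WT replicate 3. Prdm1, or BLIMP1, was at 24.0 ± 1.26 CPM in WT against 12.7 ± 0.654 CPM in Srrm2+/- (mean ± SD, n = 3 each), a fitted log2 change of -0.91 (edgeR SE 0.06 and adjusted p = 1.86e-05). Tfap2c was at 50.6 ± 0.442 and 30.8 ± 1.78 CPM (mean ± SD, n = 3 each), a fitted log2 change of -0.71 (edgeR SE 0.05 and adjusted p = 2.11e-05). Dppa3 went the other way, from 22.9 ± 2.52 to 37.4 ± 1.47 CPM (mean ± SD, n = 3 each), with a fitted log2 change of 0.71 (edgeR SE 0.08 and adjusted p = 0.000253). Prdm1, Tfap2c and Dppa3 also stand in other lists of the report. Nanos3 was below 1.2 CPM in every library and did not pass the test.

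For 3 genes of the network a single WT library far below the others decided the call. The call for Klf5, given above, also turned on a single WT library, but with a smaller spread. Fbxo15, a target of the core factors, was at 46.4, 18.6 and 57.1 CPM in WT and at 34.3, 31.5 and 31.1 CPM in Srrm2+/-. Its log2 fold change was -0.33 (edgeR adjusted p = 0.501) with all libraries and -0.68 (edgeR adjusted p = 0.00165) without WT replicate 2. Tet2, a 5-methylcytosine oxidase, was at 43.5, 15.3 and 44.7 CPM in WT and at 20.95, 26.8 and 35.4 CPM in Srrm2+/-. The same library was the low one, and without it the log2 fold change went from -0.31 (edgeR adjusted p = 0.575) to -0.67 (edgeR adjusted p = 0.0347). Eed, a Polycomb subunit, was at 27.6, 34.7 and 6.27 CPM in WT and at 16.4, 15.3 and 18.7 CPM in Srrm2+/-. Here WT replicate 3 was the low one, and without it the log2 fold change went from -0.45 (edgeR adjusted p = 0.537) to -0.89 (edgeR adjusted p = 0.000999). No naive factor showed a WT library that far from the others.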
